A study of Mus musculus with 48 samples.

Results

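The genes described are those that copy DNA and open the way into S phase, measured in the liver and the whole colon of mouse offspring. They were taken by symbol from a list of 36 genes, of which 35 had a probe on the array, through 44 probes out of 41174 and as 35 out of 18434 named genes. *Rrm2*, a subunit of ribonucleotide reductase, was the listed gene without a named probe. Of several probes of a gene, the probe with the brightest mean signal was used. The mice were C57/BL6 offspring aged 12 weeks, and all of them, dams included, received a high-fat diet. Selenium (Se) was at 0.44 mg/kg in diet H and at 0.08 mg/kg in diet L, and folate at 2.4 mg/kg in H against 0.4 mg/kg in L. The dam received H or L before mating and through gestation and lactation (the first letter of a group), and the offspring received H or L after weaning (the second letter), which gave 4 groups (HH, HL, LH, LL). The colons were those of 6 mice per group, and the livers those of 6 mice per group except HH, with 5. One HH liver, labelled as the same animal on 2 arrays, was averaged. The labels do not state which offspring shared a dam, and no animal label is shared by the tissues. According to the methods both tissues were excised from the offspring, so livers and colons may come from the same mice, and they could not be paired here.

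Replication starts from origins that are licensed in G1, when the origin recognition complex, with Cdc6 and Cdt1, loads the ring of Mcm2 to Mcm7. At the onset of S phase the kinase of Cdc7 and Dbf4 and the cyclin E kinase Cdk2 allow Cdc45 and the GINS complex to join the ring, which then unwinds DNA. Polymerases copy it, held on the template by the clamp PCNA, which replication factor C (RFC) loads. Much of this machinery is transcribed together under E2F factors, whose activators are released from the retinoblastoma protein late in G1. Adult liver is largely quiescent, whereas the crypts of the colon divide throughout life.

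The promoters of the list held words of E2F more often than promoters at large. They are shown because the genes of the list are read below as a group. The promoter table of RefSeq (build GRCm38.p6, 300 bases a gene, from 250 before to 50 after the start of transcription) held 30 of the 36 genes, the first entry of each gene being used. An E2F word, TTTCCCGC, TTTCGCGC, TTTGCCGC or TTTGGCGC on either strand, was found in 12 of these 30 promoters (40%), against 626 of 27025 promoters in the table (2.32%). The 12 genes were *Mcm3*, *Mcm5*, *Mcm6*, *Mcm7*, *Cdc6*, *Cdt1*, *Orc1*, *Rfc3*, *Pola1*, *Pold1*, *Cdk2* and *Cdc25a*. Stretches around the word are given for 6 of them that cover licensing, clamp loading and G1/S control, 5′ to 3′ on the strand of the gene, with each word in capitals. In *Mcm5* and *Mcm6* the words of both strands overlap, so that the capitals run on. The CCAAT box, bound by NF-Y, was found on either strand in 18 of the 30 promoters (60%), against 10248 of the 27025 (37.9%). It was also in 22 of 46 promoters of further replication genes (47.8%) and in 16 of 21 of mitosis genes (76.2%), so it is not particular to the list. An E2F word was in 12 of these 46 promoters (26.1%) and in 1 of the 21 (4.76%). A match describes these letters and does not show that a factor binds.
Mcm3 (chr1:20820263-20820319, minus strand): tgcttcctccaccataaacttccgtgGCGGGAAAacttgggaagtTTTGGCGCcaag
Mcm5 (chr8:75109330-75109389, plus strand): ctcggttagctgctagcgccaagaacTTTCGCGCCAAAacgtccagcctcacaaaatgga
Mcm6 (chr1:128359782-128359841, minus strand): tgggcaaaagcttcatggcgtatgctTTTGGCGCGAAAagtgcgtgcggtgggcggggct
Cdc6 (chr11:98907987-98908046, plus strand): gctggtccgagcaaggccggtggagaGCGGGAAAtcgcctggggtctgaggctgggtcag
Rfc3 (chr5:151651185-151651244, minus strand): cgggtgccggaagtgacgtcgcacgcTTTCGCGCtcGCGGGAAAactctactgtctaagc
Cdc25a (chr9:109875486-109875545, plus strand): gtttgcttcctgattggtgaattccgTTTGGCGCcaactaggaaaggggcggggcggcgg

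Each array gave the RNA of 1 mouse in Cy3 against a common reference in Cy5, and a value is the log2 ratio of mouse over reference. The ratio compares a gene between mice, not with another gene, since the reference holds each gene at its own level. A total of 48 arrays lay on 12 slides, each with 1 array of each diet group and all of 1 tissue. The share of spots above background in Cy3 lay between 55.1 and 66% in liver and between 66.8 and 73.7% in colon. The markers of the tissues followed the labels: the 6 hepatocyte markers with a probe were all called higher in the liver and the 10 colon epithelium markers all higher in the colon. In the liver, *Orc1* was above background on 1 of 24 arrays, *Cdc7* on 4, *Ccne2* on 8, *Cdk2* on 9, *Cdc45* on 10, *Cdc6* on 14 and *Cdc25a* on 20. In the colon these genes were above background on all 24 arrays, except *Cdk2*, which was so on 23. The methods describe male offspring, while the labels give no sex. Some mice carried a high signal of *Xist*, the RNA of the inactive X chromosome of females, over 2 (log2) above the median of their tissue: 2 liver mice (HL 1, LL 1) and 6 colon mice (HH 2, HL 1, LL 3). One LL colon (replicate 4) had B and T lymphocyte markers 1.94 (log2) above the colon mean in the median over 9 markers.

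The colon held more RNA of most replication genes than the liver did. In a limma fit of 23 livers and 24 colons, taken as separate mice and not paired, with slide as a random block, 24 of the 35 genes were called higher in the colon and 1 gene, *Mcm10*, was called lower, a call being a fold change over 1.5 with an FDR under 0.05 over all probes. Of all probes tested, 15.7% were called higher in the colon and 14.6% lower. The median difference over the 35 genes was 1.14 (log2 colon minus liver), against -0.01 over all probes. Each slide carried a single tissue, so tissue and its slides can be told apart only through the spread between the slides of a tissue. In whole tissue, more cells in cycle and more RNA per cell cannot be told apart.

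**Figure D1:**
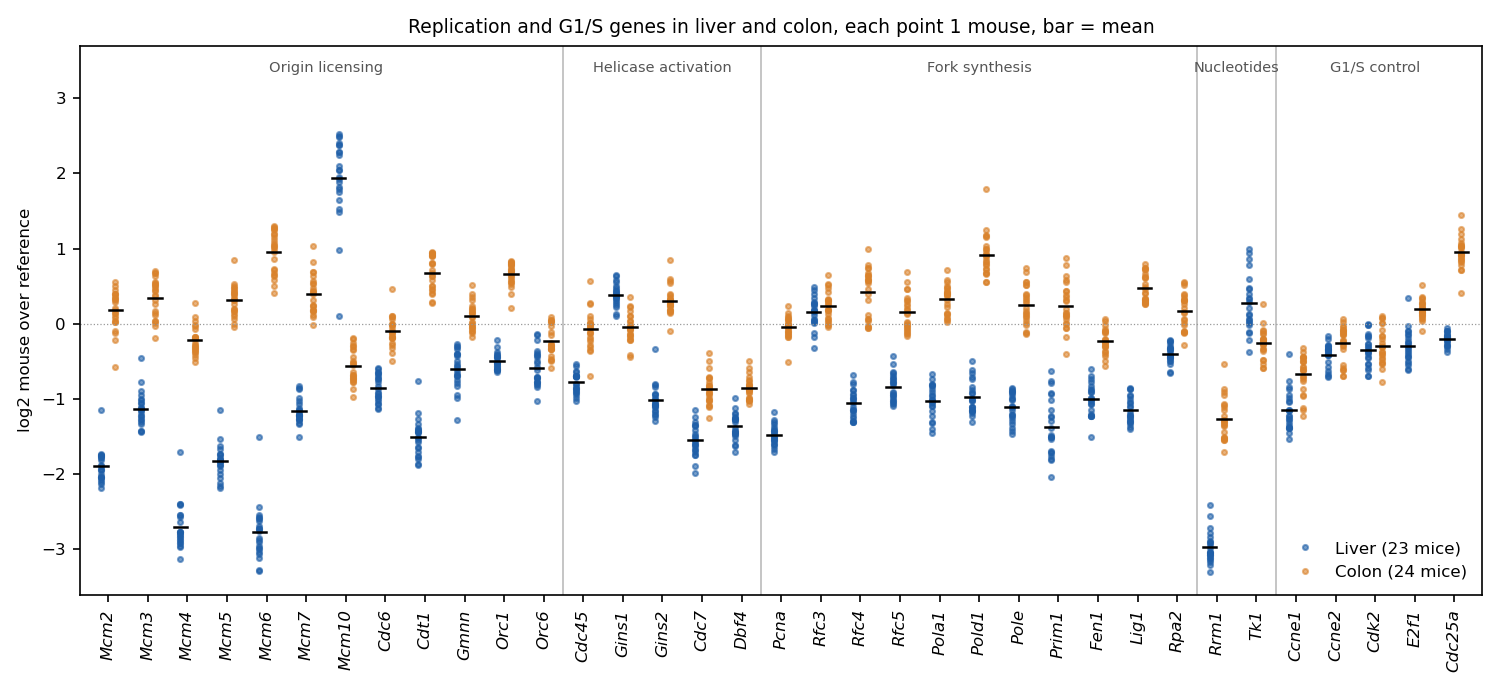
Log2 mouse over reference (vertical axis) of the 35 replication and G1/S genes (horizontal axis, grouped by role) in 23 livers (blue) and 24 colons (orange), with 1 point per mouse and a bar at the mean. Points should be compared within a gene: most genes lie higher in the colon, *Mcm6* by 3.72 (log2), whereas *Mcm10* lies higher in the liver.

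Among the 12 genes grouped under origin licensing, 10 were called higher in the colon and 1, *Mcm10*, lower. *Mcm10* was placed in this group although its part lies in activating the helicase. *Mcm6*, a subunit of the helicase ring, had the largest difference of the 35 genes. Its level ran from -3.29 to -1.5 in the liver and from 0.41 to 1.30 in the colon, so that the tissues did not overlap, and the difference was 3.72 ± 0.11 (log2, SE), or 13.2-fold, with an adjusted p of 6.83e-31 in limma. *Mcm4* differed by 2.48 ± 0.09 (5.59-fold), *Mcm5* by 2.13 ± 0.07 (4.38-fold), *Mcm2* by 2.06 ± 0.08 (4.18-fold), *Mcm7* by 1.57 ± 0.07 (2.96-fold) and *Mcm3* by 1.47 ± 0.08 (2.77-fold). The subunits of the ring thus differed between the tissues by unequal amounts. *Cdt1*, the loading factor, differed by 2.18 ± 0.08 (4.54-fold), and its inhibitor *Gmnn*, geminin, by 0.71 ± 0.08 (1.63-fold). *Cdc6* differed by 0.75 ± 0.06 (1.68-fold), with the limit that it was above background on 14 of the 24 liver arrays, and its other probe, above background on 1 liver array, gave 1.29. *Orc6*, a subunit of the origin recognition complex, differed by 0.35 ± 0.07 (1.27-fold), which was under the fold threshold. *Orc1*, the largest subunit of that complex, lay between -0.64 and -0.22 in the liver and between 0.21 and 0.83 in the colon, and its liver values are mostly from spots not well above background.

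*Mcm10*, which helps to activate the helicase and holds polymerase alpha at the fork, went the other way. Its level ran from 0.10 to 2.53 in the liver and from -0.97 to -0.19 in the colon, and it was 5.63-fold higher in the liver (-2.49 ± 0.16, log2 colon minus liver, adjusted p of 7.20e-19 in limma). The lowest liver value, 0.10, belonged to HL replicate 2, and the next, 0.98, to the HH animal on 2 arrays. Under the 8 other ways of processing this comparison *Mcm10* stayed between -2.80 and -2.05, each a call. It had a single probe, so no other probe of the array bears on it.

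Of the 5 genes grouped under helicase activation, 3 were called higher in the colon. *Gins2* differed by 1.32 ± 0.06 (2.49-fold), whereas *Gins1*, of the same complex, differed by -0.43 ± 0.06, lower in the colon but under the fold threshold, and with median centring in place of loess its sign turned (0.20). *Cdc45*, the partner of GINS in the helicase, differed by 0.70 ± 0.07 (1.62-fold) and *Cdc7* by 0.67 ± 0.08 (1.59-fold), both with few liver arrays above background. The other probes of *Cdc7* gave differences of 0.08 and 0.01, so that the call rests on the chosen probe. They were above background on 0 and 3 liver arrays and on 24 and 2 colon arrays. *Dbf4*, which activates Cdc7, differed by 0.51 ± 0.06 (1.42-fold).

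Of the 11 genes of synthesis at the fork, 9 were called higher in the colon. The polymerase subunits *Pold1*, *Pola1* and *Pole* differed by 1.88 ± 0.08 (3.69-fold), 1.36 ± 0.07 (2.56-fold) and 1.36 ± 0.07 (2.57-fold). *Prim1*, the primase, differed by 1.61 ± 0.11 (3.05-fold) and *Pcna*, the clamp, by 1.44 ± 0.05 (2.71-fold). *Lig1* and *Fen1*, which join and trim Okazaki fragments, differed by 1.63 ± 0.06 (3.09-fold) and 0.77 ± 0.07 (1.71-fold). The subunits of the clamp loader did not move alike: *Rfc4* differed by 1.46 ± 0.08 (2.76-fold), *Rfc5* by 0.98 ± 0.07 (1.98-fold) and *Rfc3* by 0.08 ± 0.06, the last with an adjusted p of 0.277 in limma. *Rpa2*, of the protein that coats single strands, differed by 0.56 ± 0.06 (1.48-fold), just under the fold threshold.

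In the supply of nucleotides, *Rrm1* was 3.26-fold higher in the colon (1.70 ± 0.08), whereas *Tk1*, thymidine kinase, differed by -0.51 ± 0.10, lower in the colon but under the fold threshold, and its sign turned with median centring (0.08). Of the 5 genes of G1/S control, only *Cdc25a*, the phosphatase that activates Cdk2, was called, at 1.14 ± 0.06 (2.21-fold). *E2f1* differed by 0.49 ± 0.06 (1.40-fold) and *Ccne1*, cyclin E1, by 0.48 ± 0.10 (1.39-fold), both with an adjusted p under the threshold but a fold under 1.5, and the other probe of *Ccne1* gave -0.05. For *Ccne2* (0.15 ± 0.07) and *Cdk2* (0.06 ± 0.07) the adjusted p of the limma fit was 0.0513 and 0.515.

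Other genes of the pathway gave a similar picture. Of 58 further genes of replication and of its control, 30 were called higher in the colon and 2 lower, with a median of 0.62. *Uhrf1*, which reads hemimethylated DNA behind the fork, differed by 3.22 ± 0.10 and *Ccna2*, cyclin A2, by 2.48 ± 0.10, whereas *Pole4*, a subunit of polymerase epsilon, was called lower (-0.97 ± 0.07). Of 24 genes of mitosis, 20 were called higher and none lower, with a median of 1.61, among them *Mki67* at 3.32 ± 0.10 and *Cenpe* at 3.18 ± 0.11.

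The diet comparisons ask whether the supply of Se and folate to the dam or to the offspring moved these genes. The list was drawn up with results of the same mice known, so the diet values that follow are a description. In the colon, fitted with slide as a block, no gene of the list was called in any comparison. For HH *vs.* LH, 34 of the 35 genes had a difference below 0 (LH minus HH), with a median of -0.14 and a range of -0.25 to 0.07, against a median of 0.00 over all probes. The limma count of calls was 0 for the genes and 0% for all probes, while 13 genes were lower at an unadjusted p under 0.05, against 3.15% of all probes. The lowest adjusted p was 0.411. Without slide as a block that count was 2 in place of 13, and without the 6 colon mice of high *Xist* signal it was 11, with a median of -0.14. It was 8 without HH replicate 4 or without LH replicate 6, and 18 without HH replicate 6.

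**Figure D2:**
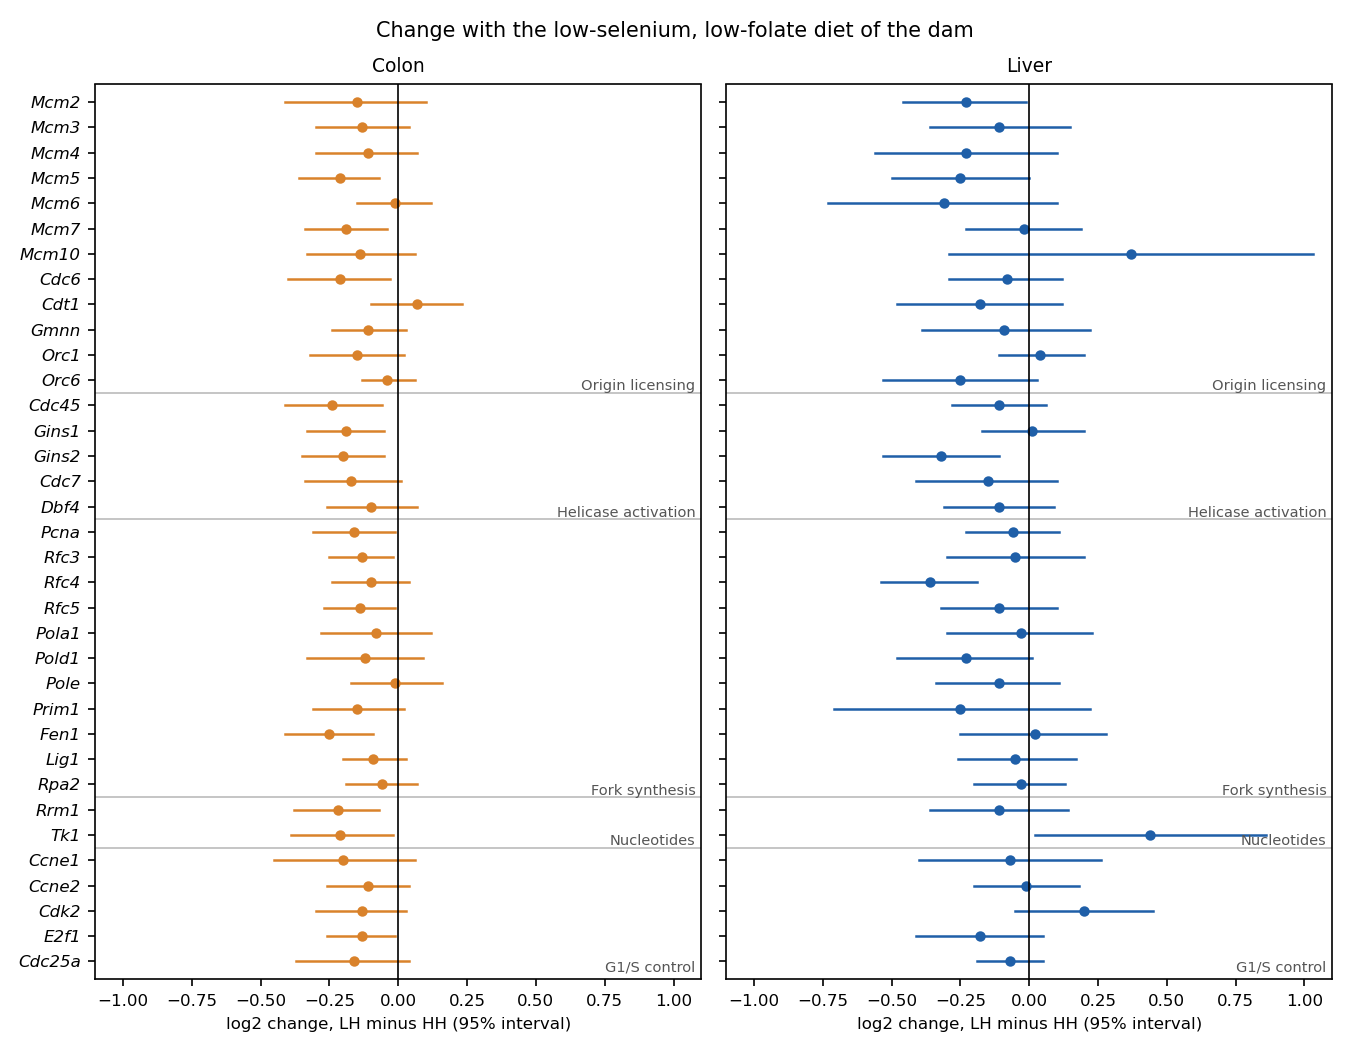
Log2 change from HH to LH (horizontal axis, point) with its 95% interval (line) for each of the 35 genes (vertical axis, grouped by role) in the colon (left, slide as a block) and the liver (right, no block). In the colon 34 points lie below 0 and none reaches -0.58, the log2 of the fold threshold; in the liver the points spread from -0.36 (*Rfc4*) to 0.44 (*Tk1*).

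*Fen1*, which trims the flaps of Okazaki fragments, had the lowest p in the colon. Its level was -0.38 to 0.04 with a median of -0.10 in HH and -0.56 to -0.25 with a median of -0.38 in LH, so that the groups overlapped. The difference was -0.25 ± 0.08 (log2, SE, 95% interval -0.41 to -0.09, n = 6 per group), with an adjusted p of 0.411 in limma and lower values in LH on 5 of 6 slides. In HL and LL *Fen1* had medians of -0.26 and -0.16.

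*Mcm5* of the helicase ring was 0.07 to 0.53 with a median of 0.43 in HH and -0.04 to 0.36 with a median of 0.15 in LH. It was lower in LH on 6 of 6 slides, by -0.21 ± 0.07, with an adjusted p of 0.434 in limma. The groups overlapped. *Cdc45* was -0.28 to 0.28 with a median of -0.03 in HH and -0.69 to 0.07 with a median of -0.22 in LH, a difference of -0.24 ± 0.08, again lower on 6 of 6 slides, which became -0.15 without LH replicate 3. *Rrm1* was -1.53 to -0.86 with a median of -1.17 in HH and -1.71 to -1.08 with a median of -1.40 in LH, a difference of -0.22 ± 0.07 and lower on 6 of 6 slides. *Cdc6* (-0.21 ± 0.09), *Rfc3* (-0.13 ± 0.06) and *Mcm10* (-0.14 ± 0.09, unadjusted p over the level) were also lower on all 6 slides. The share of all probes lower on every slide is not given here, so whether these slide counts are unusual cannot be told. The remaining genes with an unadjusted p under 0.05 were *Gins1* (-0.19), *Gins2* (-0.20), *Mcm7* (-0.19), *Tk1* (-0.21), *Rfc5* (-0.14), *E2f1* (-0.13) and *Pcna* (-0.16). *Mcm6* and *Pole* were at -0.01 each, and *Cdt1* was the gene above 0, at 0.07 ± 0.08. In percent, the differences from *Rfc3* to *Fen1* came to -8.78% and -15.9%.

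When diet L was given to the offspring alone (HH *vs.* HL), 34 of the 35 genes were again below 0, with a median of -0.10. The comparison shares its HH mice with the others, so these counts are not independent of each other. No gene was called and the lowest adjusted p was 1, while 9 genes were lower at an unadjusted p under 0.05, against 1.81% of all probes. *Prim1* was at -0.23 ± 0.08, *Gins2* at -0.21 ± 0.07 and *Gins1* at -0.18 ± 0.07. With median centring the 34 genes became 22 and the 9 became 0. The 9 became 4 without HH replicate 2, without HL replicate 5 or without the mice of high *Xist* signal, 5 without HH replicate 4 or without HL replicate 4, and 1 without the slide block. When diet L was given throughout (HH *vs.* LL), 26 genes were below 0 with a median of -0.04, and 3 were lower at an unadjusted p under 0.05 (*Gins2*, *Lig1* and *Tk1*), against 1.93% of all probes. In LL, replicate 4 stood apart in its lymphocyte markers and replicate 6 in its values of the list, and without both the median was -0.08 and the 3 became 5. The 3 became 6 without LL replicate 6 alone and 1 without LL replicate 2 or without HH replicate 2.

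Both groups with L dams were set against each other as well. For LH *vs.* LL, 25 genes had a difference above 0 (LL minus LH) with a median of 0.09, and 10 were higher at an unadjusted p under 0.05, against 2.78% of all probes, but none was called and the lowest adjusted p was 0.596 in limma. *Cdc6* was at 0.25 ± 0.09, *Mcm4* at 0.23 ± 0.09, *Cdc45* at 0.23 ± 0.08 and *Fen1* at 0.21 ± 0.08, the last higher in LL on 6 of 6 slides. LL replicate 6 had the highest LL value of *Cdc6* (0.46), *Mcm4* (0.28) and *Cdc45* (0.57). Without LL replicates 4 and 6 the median of this comparison was 0.06, and with median centring it was 0.19. The count of 10 without these mice is not given here. The interaction of both diets was above 0 for 35 of the 35 genes, with a median of 0.21, and 13 were higher at an unadjusted p under 0.05, against 2.02% of all probes. None was called and the lowest adjusted p was 0.99. In the liver the interaction was above 0 for 21 of the 35 genes, with a median of 0.02. Of the 24 mitosis genes, 23 were above 0 in the colon (median 0.32) and 24 in the liver (median 0.25). The colon pattern was thus not particular to the list. In the colon, dam diet L minus H, averaged over the diets of the offspring, had a median of -0.05, with 29 genes below 0. For this contrast 0 genes were at an unadjusted p under 0.05. Offspring diet L minus H, averaged over the diets of the dam, had a median of 0.00, with 18 genes below 0 and 2 lower at that level. The shares of all probes for these averaged contrasts are not given, so whether the counts are unusual cannot be told. By mouse, the median over the 35 genes of the deviation from the colon mean was 0.06 ± 0.08 (SD) in HH, -0.04 ± 0.08 in HL, -0.07 ± 0.09 in LH and 0.02 ± 0.09 in LL, with n = 6 each. These groups overlapped.

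**Figure D3:**
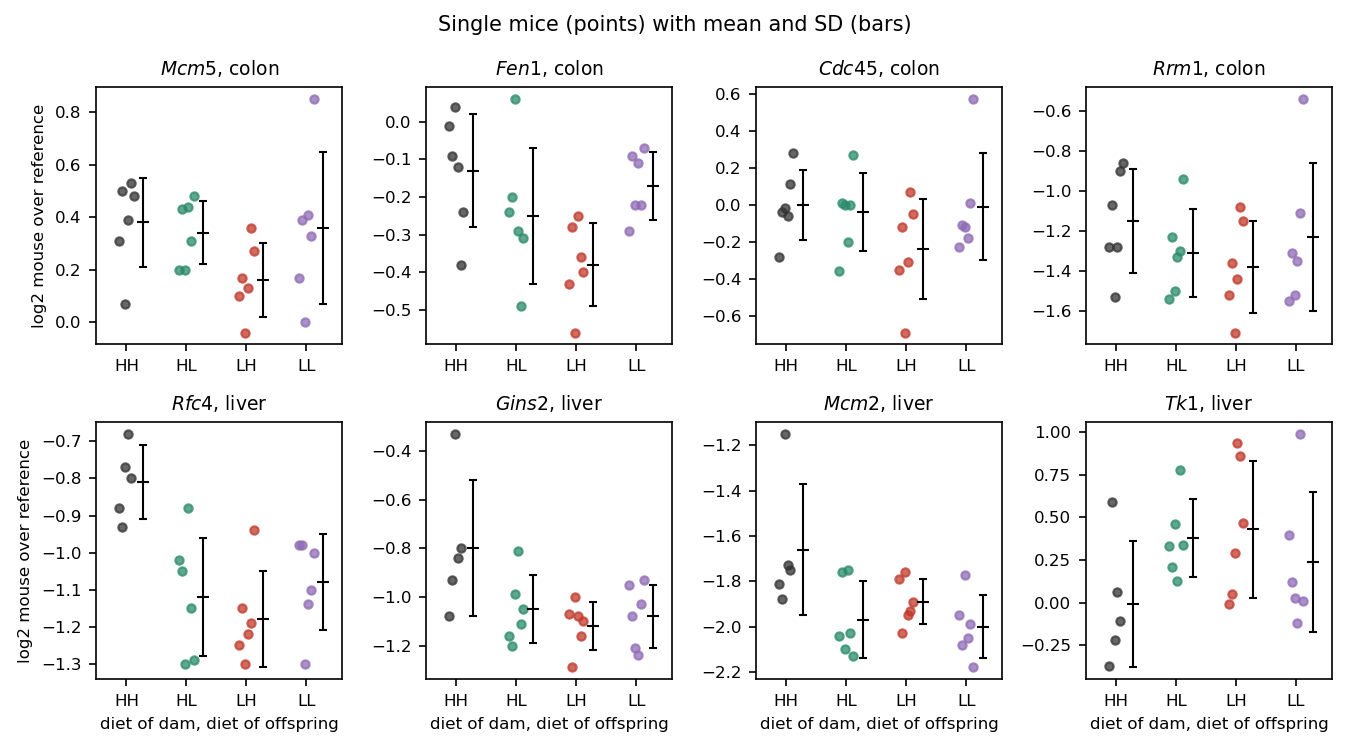
Log2 mouse over reference (vertical axes) of *Mcm5*, *Fen1*, *Cdc45* and *Rrm1* in the colon and of *Rfc4*, *Gins2*, *Mcm2* and *Tk1* in the liver for each diet group (horizontal axes), with 1 point per mouse and the mean ± SD beside it. Only *Rfc4* shows groups that do not overlap, HH (-0.93 to -0.68) above LH (-1.3 to -0.94) and LL (-1.3 to -0.98). The share of all probes without overlap is not given.

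The colon values ranged wider between slides than between diets. For 33 of the 35 genes the means of the 6 colon slides spanned a wider range than the means of the 4 diets, with medians of 0.45 and 0.18 (log2). A slide mean covers 4 arrays and a diet mean 6 mice, and there are more slides than diets. The range between slides would therefore tend to be the wider one without any slide effect. In the liver it was wider for 27 of the 35 genes, with medians of 0.34 and 0.22. *Prim1* ran from -0.12 to 0.68 between slides and *Rrm1* from -1.56 to -0.87, both with their highest mean on slide 12. *Rfc4* had means between 0.47 and 0.70 on slides 7 to 10 and of 0.00 and 0.03 on slides 11 and 12, and *Mcm6* had means of 0.97 to 1.21 on slides 7 to 10 and of 0.58 and 0.65 on slides 11 and 12. *Fen1* was an exception, with a range of 0.20 between slides and 0.25 between diets. Every slide held each diet once, so these shifts enter each diet alike.

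Cell markers were read beside the colon values. For HH *vs.* LH the medians over the markers were -0.03 for colon epithelium, -0.11 for goblet cells, 0.03 for crypt stem cells, 0.00 for smooth muscle, 0.10 for lymphocytes and 0.13 for enteric neurons. Of the 10 epithelium markers 6 were lower in LH, down to -0.45, and 4 were higher. At an unadjusted p under 0.05 in limma, 2 epithelium markers and 1 smooth muscle marker were lower, against 3.15% of all probes. Of the 7 neuron markers 6 were higher in LH, 4 of them at an unadjusted p under 0.05, against 21467 and 2027 of 41173 probes, and their summed Cy3 signal (log2) was 11.83 to 12.11 in HH and 11.99 to 12.18 in LH. No marker was called, and the part of the cell types in the values of the list was not tested.

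In the liver no gene of the list was called either, and the values were more spread. For HH *vs.* LH, 29 of the 35 genes were below 0, with a median of -0.11 and a range of -0.36 to 0.44. The limma count was 0 for the genes and 0% for all probes. At an unadjusted p under 0.05, 4 genes were lower, against 6.13% of all probes, and 1, *Tk1*, was higher. The share of all probes that were higher is not given here. For HH *vs.* HL, 29 genes were below 0 (median -0.11) and 4 were lower at an unadjusted p under 0.05, against 2.24% of all probes. For HH *vs.* LL, 31 genes were below 0 (median -0.16) and 10 were lower at that level, against 2.18% of all probes. The 3 comparisons share the 5 HH mice. Without the HH animal on 2 arrays (replicate 3) the counts of 4, 4 and 10 became 2, 1 and 5, and the medians -0.05, -0.06 and -0.11. The count for LH also became 2 without LH replicate 2, 5 or 6 and 7 without HH replicate 5, and that for HL became 8 without HL replicate 4. With median centring the counts were 1, 2 and 2. Dam diet L minus H, averaged over the diets of the offspring, had a median of -0.09, with 30 genes below 0 and 3 lower at an unadjusted p under 0.05. Offspring diet L minus H, averaged over the diets of the dam, had a median of -0.08, with 31 genes below 0 and 3 lower at that level. The shares of all probes for these averaged contrasts are not given here, so whether the counts are unusual cannot be told.

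*Rfc4*, a subunit of the clamp loader, had the lowest p of the list in the liver. Its values in HH were -0.88, -0.93, -0.77, -0.68 and -0.80, against -1.30 to -0.94 with a median of -1.20 in LH, -1.30 to -0.88 with a median of -1.1 in HL and -1.30 to -0.98 with a median of -1.05 in LL. All HH mice were above all LH and all LL mice, though the nearest HH and LH values were -0.93 and -0.94, while HL overlapped HH. The share of all probes without such overlap is not given here, so whether this is unusual cannot be told. LH minus HH was -0.36 ± 0.08 (-22.4%), with an adjusted p of 0.182 in limma. It was lower on 6 of 6 slides, where 2 slides carry the same HH animal. HL minus HH was -0.31 ± 0.08 and LL minus HH was -0.27 ± 0.08, with adjusted p of 0.952 and 1. With median centring *Rfc4* was at -0.22 for LH and at -0.14 for LL. *Rfc5* and *Rfc3*, of the same complex, were at -0.11 ± 0.10 and -0.05 ± 0.12 for LH minus HH.

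*Gins2* was -1.08, -0.93, -0.33, -0.84 and -0.80 in the HH livers and -1.29 to -1 with a median of -1.09 in LH, a difference of -0.32 ± 0.10 with an adjusted p of 0.254 in limma. The groups overlapped. *Mcm2* was -1.81, -1.88, -1.15, -1.73 and -1.75 in HH, -2.03 to -1.76 in LH and -2.18 to -1.77 in LL, with differences from HH of -0.23 ± 0.11 and -0.34 ± 0.11. In both genes the highest HH value belonged to replicate 3, the animal on 2 arrays. Without it LH minus HH became -0.20 for *Gins2* and -0.10 for *Mcm2*, LL minus HH became -0.21 for *Mcm2*, and the median over the list became -0.05 with 24 genes below 0. *E2f1* was -0.44 to 0.34 with a median of -0.10 in HH and -0.61 to -0.31 with a median of -0.47 in LL, a difference of -0.37 ± 0.11, which became -0.26 without that animal.

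*Tk1*, of thymidine salvage, had a difference above 0 in the liver. It was -0.37, 0.59, -0.22, 0.06 and -0.11 in HH and -0.01 to 0.94 with a median of 0.38 in LH, a difference of 0.44 ± 0.20 (36%), with an adjusted p of 0.393 in limma. In the colon *Tk1* was at -0.21 ± 0.09 for the same diets. The test of the difference itself, LH minus HH in the colon minus that in the liver, gave -0.66 ± 0.21 for *Tk1* with an adjusted p of 0.253, the lowest of the list, so no gene was shown to respond differently in both tissues. Across the list this difference had a median of -0.05, with 22 genes below 0. *Mcm10*, at 0.37 ± 0.32 for LH minus HH in the liver, had the widest interval of the list, -0.29 to 1.03.

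**Figure D4:**
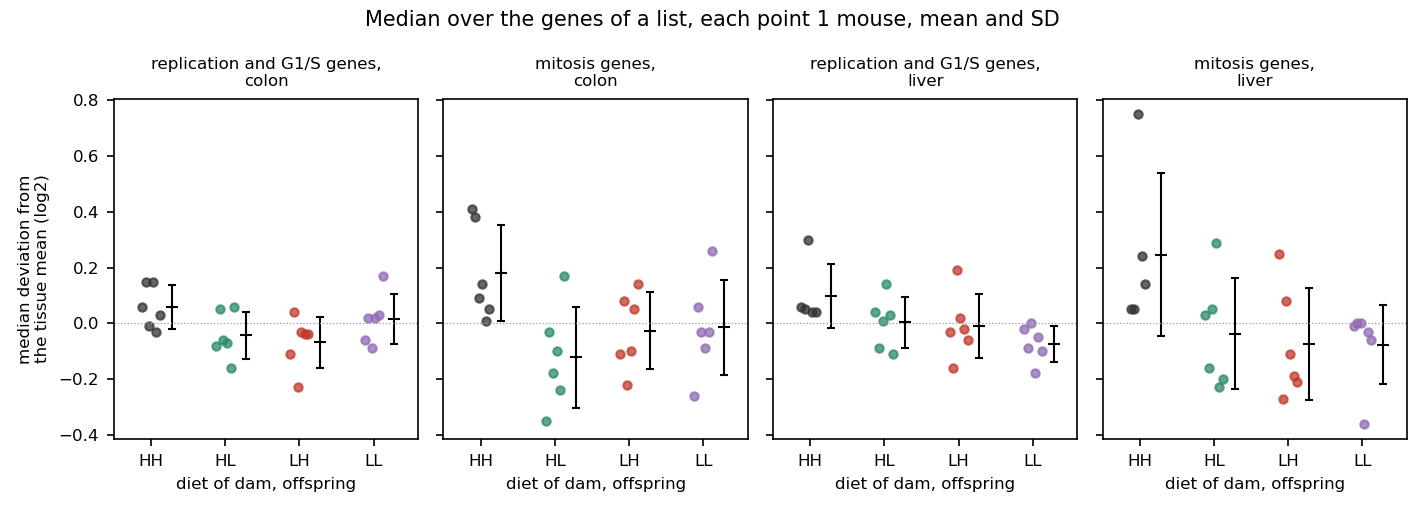
Median over a list of genes of the deviation from the tissue mean (vertical axis, log2) for each mouse (points) with mean ± SD, by diet group (horizontal axes), for the 35 replication and G1/S genes and for 24 mitosis genes in colon and liver. The groups overlap in each panel except that the HH livers (0.04 to 0.30 and 0.05 to 0.75) lie above the LL livers (-0.18 to 0.00 and -0.36 to 0.00).

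The HH animal on 2 arrays had the highest medians of any liver over the list and over the mitosis genes. Its median over the 35 genes was 0.30 above the liver mean and over the 24 mitosis genes 0.75 above it, against 0.04 to 0.06 and 0.05 to 0.24 in the other HH livers. Over the 58 further genes of replication and its control this animal was at 0.09. All HH livers lay at 0.03 to 0.11 there, and HL replicate 4 at 0.18. The Kupffer cell markers, of the macrophages of the liver, were 0.84 above the mean in the HH animal on 2 arrays. Over all HH livers the summed Cy3 signal (log2) of the 6 Kupffer markers was 12.82 to 15.72, and in LH 13.15 to 14.48. The 6 hepatocyte markers summed to 18.92 to 19.62 in HH and 19.07 to 19.83 in LH. Gene by gene, LH minus HH had a median of 0.22 over the hepatocyte markers, with 6 above 0. It was -0.31 over the Kupffer markers, with 6 below 0, and -0.12 over 9 lymphocyte markers, with 7 below 0. At an unadjusted p under 0.05 in limma, 1 hepatocyte marker was higher. At that level 1 Kupffer and 4 lymphocyte markers were lower, against 6.13% of all probes. None was called. The part of the cell types in the values of the list was not tested.

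The other genes of the pathway lay below 0 in both tissues as well. Of the 58 further genes of replication and its control, 40 were below 0 for HH *vs.* LH in the colon (median -0.09) and 44 in the liver (median -0.12), with no call in limma. At an unadjusted p under 0.05, 13 were lower and 4 higher in the colon, and 12 lower and 1 higher in the liver, where 3.15% of all probes were lower in the colon and 6.13% in the liver. No share of all probes is set here beside the counts of higher genes. The lowest p in the colon belonged to *Cdk4*, the cyclin D kinase (-0.23 ± 0.07), *Rb1*, the retinoblastoma gene (0.19 ± 0.06), and *Ccna2* (-0.34 ± 0.11), and in the liver to *Tipin* (-0.37 ± 0.10), *Rpa3* (-0.65 ± 0.18) and *Asf1b* (-0.28 ± 0.08). Of the 24 mitosis genes, 23 were below 0 in the colon (median -0.20) and 24 in the liver (median -0.29), with no call in limma and with 15 and 11 lower at an unadjusted p under 0.05, to be read against the same shares of all probes. The lowest p belonged to *Ube2c* (-0.36 ± 0.10), *Bub1b* (-0.27 ± 0.08) and *Plk1* (-0.26 ± 0.08) in the colon and to *Tpx2* (-0.48 ± 0.13), *Ccnb1* (-0.52 ± 0.15) and *Nuf2* (-0.33 ± 0.10) in the liver. For HH *vs.* HL in the colon, 23 of the mitosis genes were below 0 with a median of -0.30, led by *Cdc20* (-0.40 ± 0.09), *Plk1* (-0.35 ± 0.08) and *Ccnb2* (-0.36 ± 0.09), each with an adjusted p of 1.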

How the data were processed

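Per the labels and the file headers, RNA of each mouse (Cy3) and of a common reference (Cy5) was hybridised to Agilent 4 × 44 k arrays without a dye swap, and Feature Extraction 10.10.1.1 gave the intensity of each spot. The sources differ on the reference: a pool of RNA from intestine and liver in the methods, and a pregnant animal with its foetus in the design text. The authors deposited raw median and background intensities, processed intensities, and a log2 table in which the reference is divided by the mouse, and which matched loess without background correction (Pearson r of 1). The labels name limma and R 3.0.2.

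Here, in R 4.3.3 with limma 3.58.1, local backgrounds at or above their spot were set to the array median, normexp (offset 50) and global loess followed, and log2 mouse over reference was averaged over spots. Probes were named by accession (27050 of 41174 probes). Each tissue was fitted with lmFit and eBayes over 4 groups, the colon with slide as a block, and both tissues together with slide as a random block (correlation 0.21). Calls needed a fold change over 1.5 and an FDR (Benjamini-Hochberg, all probes with at least 2 mice per group) under 0.05. P-values are two-sided. Replicate numbers follow the slides, which the labels give: deviations of arrays on the same slide had a median correlation of 0.36 in the colon and 0.17 in the liver, against -0.13 and -0.03 for arrays of other slides and groups. The genes named are all members and, from the other pathway lists, examples among the called genes or, with under 3 calls, the 3 with the lowest p. The members, lists and tests were chosen with earlier results of these data known. The fits were tested on simulated data. Alternatives were other background corrections and scalings, Cy3 alone, a filter on dim probes, the block, the groups in the fit, the mean of all probes, and mice left out. The number of arrays limits the precision.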

Additional observations from a re-analysis of the deposited data

Results flagged for a closer look

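In 12 of 280 sets of values (35 genes in 8 groups) a mouse lay far from the rest of its group by Dixon's criterion, which chance alone gives in about 1 in 20 sets. Of these, 4 belonged to the HH liver on 2 arrays (replicate 3): *Mcm2* at -1.15, with the others at -1.88 to -1.73; *Mcm5* at -1.15, with the others at -1.83 to -1.66; *Mcm6* at -1.5, with the others at -3.04 to -2.69; and *Rrm1* at -2.41, with the others at -3.03 to -2.89. HL liver replicate 2 had *Mcm10* at 0.10, with the others at 1.75 to 2.4, and it was 1 of the 2 livers with a high *Xist* signal. LL colon replicate 6 had *Cdc6* at 0.46, with the others at -0.18 to -0.01, and *Cdc45* at 0.57, with the others at -0.23 to 0.01. LL colon replicate 4, the colon with high lymphocyte markers, had *Tk1* at -0.59, with the others at -0.26 to -0.20. HL colon replicate 1 had *Cdc25a* at 1.45, with the others at 0.82 to 1.04. Smaller gaps met it for *Cdc45* in HH liver replicate 4 (-0.64), *Pold1* in LH liver replicate 4 (-0.92) and *Rrm1* in LL liver replicate 3 (-2.72). No gene of the list had an adjusted p under 0.05 for an interaction of the diets or for a difference of diet effects between the tissues.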

How the results depend on the processing

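Under 16 alternatives, of which 2 were chosen after seeing the data (without both LL colons that stood apart, and without the HH animal on 2 arrays), no gene of the list was called in the comparisons between diet groups or in their interaction, for which up to 12 alternatives were run in the colon and 14 in the liver. For HH *vs.* LH in the colon the median stayed between -0.18 and -0.13, and between -0.16 and -0.10 when each mouse was left out. With no replicate block it was -0.14 and the count lower at an unadjusted p under 0.05 was 2 in place of 13. In the liver the median ran from -0.14 to -0.04 (from -0.15 to -0.05 with a mouse left out), and with slide as a block, so that mice of a slide were paired, it was -0.09. All probes gave 18 calls for HH *vs.* LH in the liver when only these groups were fitted, none of them of the list. For colon minus liver, 23 to 30 genes were called higher. The count called lower was 2 with processed signals and 3 with Cy3 alone, and the median was 1.03 with normexp without the repair of backgrounds, 1.58 with processed signals and 1.39 with median centring. Median centring also shifted the median of all probes to -0.22, called 42.3% of the called probes higher in place of 51.8%, and turned *Tk1* to 0.08 and *Gins1* to 0.20. Both were called lower with Cy3 alone (-0.59 and -0.62), and *Gins1* with processed signals (-0.61). The cause of these shifts was not tested. Leaving out each mouse kept the counts at 24 and 1 and the median between 1.12 and 1.16.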
